A study of Mus musculus with 4 samples.

Results

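The heat shock proteins and their partner chaperones were compared between invariant natural killer T (iNKT) cells of CD4-Vα14Tg mice and of wild-type (WT) mice. A gene was taken as a member when its symbol on the array began with Hspa, Hspb, Hspd, Hspe, Hsph, Hsp90 or Dnaj, or was Tcp1 or one of Cct2 to Cct8. This gave 77 of the 22180 genes that had a probe set annotated with 1 symbol, and 69 of the 77 were bright enough to test. CD4-Vα14Tg mice carry a rearranged Vα14 T cell receptor α chain as a transgene under the CD4 promoter, and the WT mice carry none. Each genotype was measured on 2 Affymetrix whole-transcript arrays, labelled replicate 1 and replicate 2. Whether the 2 arrays of a genotype came from separate mice is not given in the sources used here, so every test measures the spread between these arrays. The organ, the sorting gate and the age and sex of the mice are also not given, and the CD4 promoter is active in T cells other than iNKT cells.

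Chaperones bind unfolded or partly folded proteins and keep them from aggregating. HSP70 proteins hold short stretches of a client in a cycle driven by ATP, J proteins of the Dnaj families deliver clients to HSP70 and stimulate its ATPase, HSP110 proteins and BAG proteins reset it by exchanging nucleotide, and HSP90 takes over partly folded kinases and receptors. The chaperonins are closed chambers in which a protein folds, HSP60 with its lid HSP10 in mitochondria and the CCT complex in the cytosol, where CCT folds actin and tubulin. Heat, oxidants and handling activate the transcription factor HSF1, which binds inverted repeats of nGAAn, while stress in the endoplasmic reticulum (ER) acts through ER stress elements.

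The promoters of the genes on which the results turn are given first. Each is the stretch of 250 bases before the RefSeq start, read from RefSeq windows of build GRCm38.p6, in which 64 of the 77 genes had an entry. Capitals mark the heat shock element GAANNTTC or TTCNNGAA in Hspa1a and Hspa1b, the overlapping matches to its longer form TTCNNGAANNTTC or GAANNTTCNNGAA in Hspe1, and the ER stress element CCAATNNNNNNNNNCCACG in Hspa5. Hspa2, the gene that passed the test below, had no match to the first pair of forms in its window and is therefore all in lower case.
Hspa1a (GRCm38.p6 chr17:34972157-34972406, minus strand): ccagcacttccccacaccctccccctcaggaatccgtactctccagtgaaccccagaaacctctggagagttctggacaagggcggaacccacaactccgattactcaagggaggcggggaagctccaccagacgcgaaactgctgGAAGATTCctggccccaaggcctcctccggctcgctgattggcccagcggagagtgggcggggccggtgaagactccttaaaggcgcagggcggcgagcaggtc
Hspa1b (GRCm38.p6 chr17:34959239-34959488, minus strand): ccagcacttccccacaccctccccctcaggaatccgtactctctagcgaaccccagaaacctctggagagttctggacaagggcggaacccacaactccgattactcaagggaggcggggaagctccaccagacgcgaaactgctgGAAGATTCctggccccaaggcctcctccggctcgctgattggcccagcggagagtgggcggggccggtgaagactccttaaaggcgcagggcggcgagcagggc
Hspe1 (GRCm38.p6 chr1:55087898-55088147, plus strand): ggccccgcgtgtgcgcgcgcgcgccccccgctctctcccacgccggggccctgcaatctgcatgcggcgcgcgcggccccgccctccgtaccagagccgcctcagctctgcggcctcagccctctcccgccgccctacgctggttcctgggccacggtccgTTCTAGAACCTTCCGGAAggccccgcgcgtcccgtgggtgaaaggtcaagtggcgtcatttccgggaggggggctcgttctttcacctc
Hspa5 (GRCm38.p6 chr2:34771840-34772089, plus strand): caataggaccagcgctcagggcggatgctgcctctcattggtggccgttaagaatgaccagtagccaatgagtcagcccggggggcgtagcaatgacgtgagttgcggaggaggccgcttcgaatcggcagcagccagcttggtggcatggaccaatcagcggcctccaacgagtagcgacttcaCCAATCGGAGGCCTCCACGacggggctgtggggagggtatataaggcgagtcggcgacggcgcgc
Hspa2 (GRCm38.p6 chr12:76404120-76404369, plus strand): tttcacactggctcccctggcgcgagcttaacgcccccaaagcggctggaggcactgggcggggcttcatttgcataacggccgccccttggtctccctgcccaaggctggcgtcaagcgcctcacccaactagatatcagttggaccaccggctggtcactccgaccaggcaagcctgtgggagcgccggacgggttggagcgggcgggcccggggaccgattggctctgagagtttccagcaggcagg
The windows of Hspa1a and Hspa1b differed at 3 of 250 positions and were 98.8% identical, with the heat shock element at the same place, from 104 to 97 bases before the start. The shorter form, searched on both strands, was found in 17 of 81 promoter windows of the chaperone genes (21.0%) and in 12.8% of all 32851 windows of the same length. The longer form, which contains the shorter, was found in 4 of the 81 (4.94%) and in 0.466% of all. These 4 windows belong to 3 genes, Dnajb6, Hspd1 and Hspe1. The ER stress element was found in 3 of the 81 (3.70%, in Hspa5, Hsp90b1 and Dnajc3) and in 0.113% of all. The 81 windows belong to 64 genes, so windows of 1 gene are not independent. A match describes these letters and is not evidence of binding.

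CD4-Vα14Tg and WT iNKT cells differed little in their chaperone genes. Of the 69 tested, 1 was lower in CD4-Vα14Tg cells and 0 were higher by limma's test at an adjusted p under 0.05. The one that fell was Hspa2, an HSP70 best known from male germ cells. Its log2 values were 5.46 and 5.15 on the CD4-Vα14Tg arrays and 6.04 and 6.18 on the WT arrays, so that both transgenic arrays lay below both WT arrays. The means were 5.31 ± 0.22 against 6.11 ± 0.10 (SD, n = 2 arrays each), a 1.74-fold fall with a log2 difference of -0.80 and a 95% interval from -1.14 to -0.46 (limma adjusted p = 0.0440). The call was lost when any of CD4-Vα14Tg replicate 2, WT replicate 1 or WT replicate 2 was left out (limma adjusted p = 0.155, 0.0836 and 0.177) and when dim genes were kept in the test (0.0606).

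The shares of lower genes lay near those of the whole array, and the shares of higher genes lay below them. Among all 13602 genes tested, 1.34% were called lower and 0.610% higher, against 1.45% and 0% of the chaperone genes. At an unadjusted p under 0.05, 5 chaperone genes were lower (7.25%, against 7.04% of all genes) and 2 were higher (2.90%, against 4.62%). The median log2 difference was -0.03 for the chaperone genes and -0.02 for all genes, with 24 positive, 44 negative and Hspa13 at 0. Both transgenic arrays lay below both WT arrays for 16 chaperone genes (23.2%, against 23.4% of all genes) and above them for 5 (7.25%, against 15.7%), and the arrays of the remaining 48 overlapped.

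**Figure D1:**
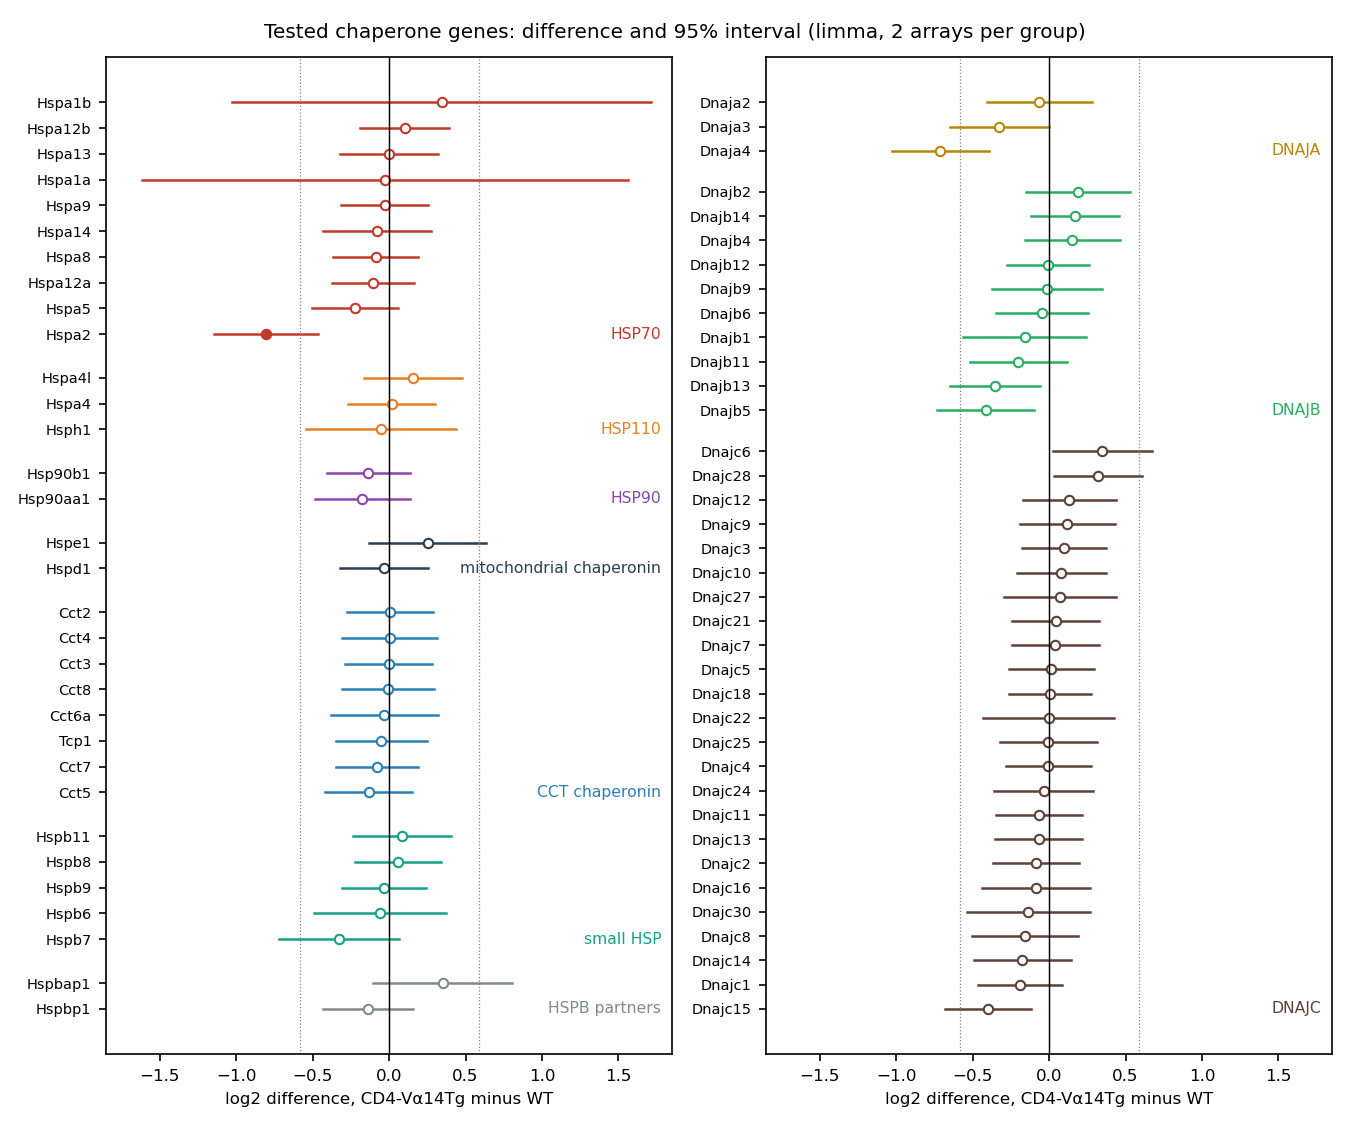
Log2 difference (CD4-Vα14Tg minus WT, x axis) of each of the 69 tested chaperone genes with its 95% interval from limma, grouped by family; a filled point passed the adjusted threshold and dotted lines mark 1.5-fold. Hspa2 at -0.80 is the filled point, most intervals stay inside the dotted lines, and those of Hspa1a and Hspa1b are the widest.

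Each interval covers the brightest probe set of a gene and the spread between these arrays, and is not adjusted for the number of genes. It therefore does not bound every missed difference of a gene. Further probe sets of Hspa8 and Tcp1, given below, differed by more than the brightest. For 56 of the 69 genes (81.2%, against 79.0% of all genes) the whole 95% interval lay within 1.5-fold either way, and for 65 it lay within 2-fold. The 4 beyond 2-fold were Hspa2, Dnaja4, Hspa1a and Hspa1b. The other 9 beyond 1.5-fold were Dnaja3, Dnajb5, Dnajb13, Dnajc15, Dnajc6, Dnajc28, Hspb7, Hspbap1 and Hspe1.

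The stress-inducible HSP70 genes Hspa1a and Hspa1b stood apart by the gap between the WT arrays. Their protein products are nearly the same and the genes are close copies, so the probe sets may not tell them apart. Hspa1a read 8.32 on WT replicate 1 and 10.84 on WT replicate 2, a gap of 2.52 on the log2 scale or 5.72-fold, while the CD4-Vα14Tg arrays read 9.57 and 9.54. Hspa1b read 8.57 and 10.72 on the WT arrays, a gap of 2.15 or 4.42-fold, and 10.11 and 9.86 on the CD4-Vα14Tg arrays. For both genes the transgenic arrays lay between the WT arrays. Among all 13602 genes tested these gaps between the WT arrays ranked 2 and 3 by size, where the median gap was 0.14. In the CD4-Vα14Tg group the gap was 0.034 for Hspa1a, rank 11827, and 0.255 for Hspa1b, rank 3321.

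The genotype difference of the pair could not be resolved. It was -0.02 for Hspa1a (interval -1.61 to 1.56, limma adjusted p = 0.999) and 0.34 for Hspa1b (interval -1.03 to 1.72, limma adjusted p = 0.931). The sign turned on which WT array was left out. In such a fit the lone WT array is assumed to vary like the CD4-Vα14Tg pair and the model's prior, so the p-values that follow hold no measure of the spread between WT arrays. Without WT replicate 1, Hspa1a was lower in CD4-Vα14Tg cells by 1.28 on the log2 scale (-1.28, limma adjusted p = 0.0105) and Hspa1b was at -0.73 (limma adjusted p = 0.133). Without WT replicate 2, Hspa1a was higher at 1.23 (limma adjusted p = 0.0178) and Hspa1b at 1.42 (limma adjusted p = 0.0164), and these were then the 2 chaperone genes called higher, while Hspa2 was no longer called and 0 were lower.

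**Figure D2:**
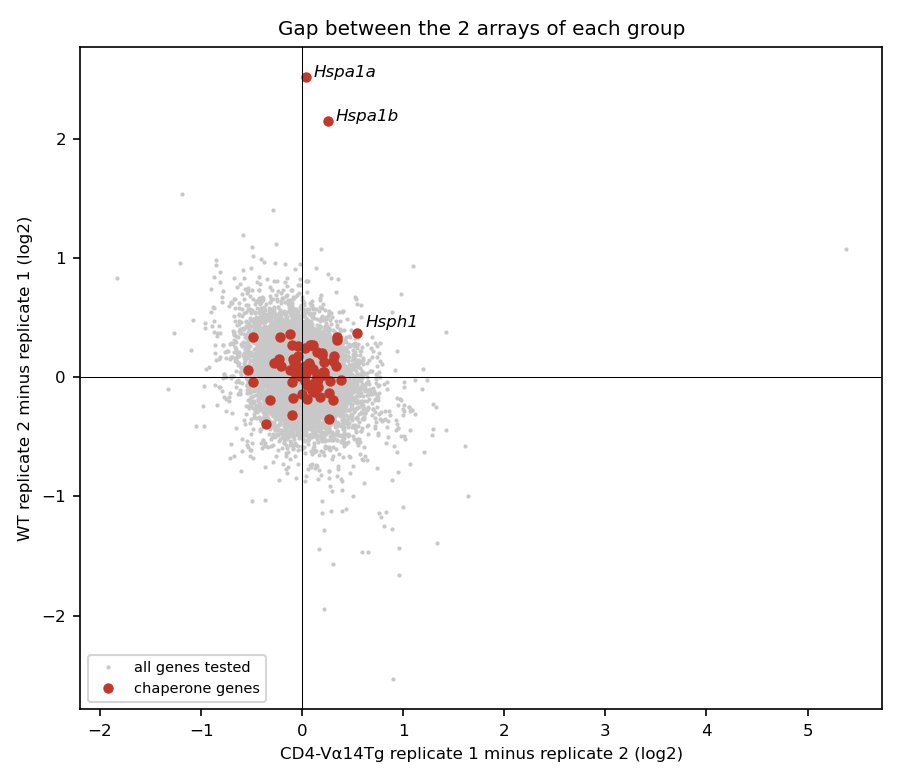
Gap between the arrays of each group for all 13602 genes tested (grey) and the 69 chaperone genes (red), as CD4-Vα14Tg replicate 1 minus replicate 2 (x axis) against WT replicate 2 minus replicate 1 (y axis), both in log2 units. Hspa1a at 2.52 and Hspa1b at 2.15 on the y axis lie far above the other chaperone genes, and Hsph1 is the chaperone gene farthest to the right, at 0.55.

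The other heat-inducible chaperones did not share a gap of that size. Dnajb1, the J protein that works with inducible HSP70, read 8.90 and 8.56 on the CD4-Vα14Tg arrays and 8.72 and 9.06 on the WT arrays. Hsph1, the inducible HSP110, read 9.32 and 8.77 against 8.91 and 9.28. In both genes the arrays of the genotypes overlapped, WT replicate 2 was above WT replicate 1 (by 0.34 and 0.37), and CD4-Vα14Tg replicate 1 was above replicate 2 (by 0.34 and 0.55). Besides Hspa1a and Hspa1b, the heat-inducible list had 10 tested genes. Of these 10, 7 were higher on WT replicate 2 than on replicate 1, against 55.6% of all genes. Their median deviations from each gene's mean were 0.062 on WT replicate 2 and 0.011 on replicate 1, against 0.025 and 0.0015 for all genes.

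Small nucleolar RNA genes also differed between the WT arrays, in the direction opposite to Hspa1a and Hspa1b. Of 71 tested, 62 (87.3%, against 44.0% of all genes) were lower on WT replicate 2 than on WT replicate 1, and 55 were lowest on WT replicate 2 of the 4 arrays. Their median deviation from each gene's mean was 0.48 and 0.16 on the CD4-Vα14Tg arrays and -0.082 and -0.60 on the WT arrays. By this median, both CD4-Vα14Tg arrays were also above both WT arrays. Among 22 immediate early genes, which respond to handling of cells within minutes, 13 (59.1%, against 55.6% of all genes) were higher on WT replicate 2 than on replicate 1. The part of the small nucleolar RNA shift in the Hspa1a and Hspa1b gap was not tested.

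**Figure D3:**
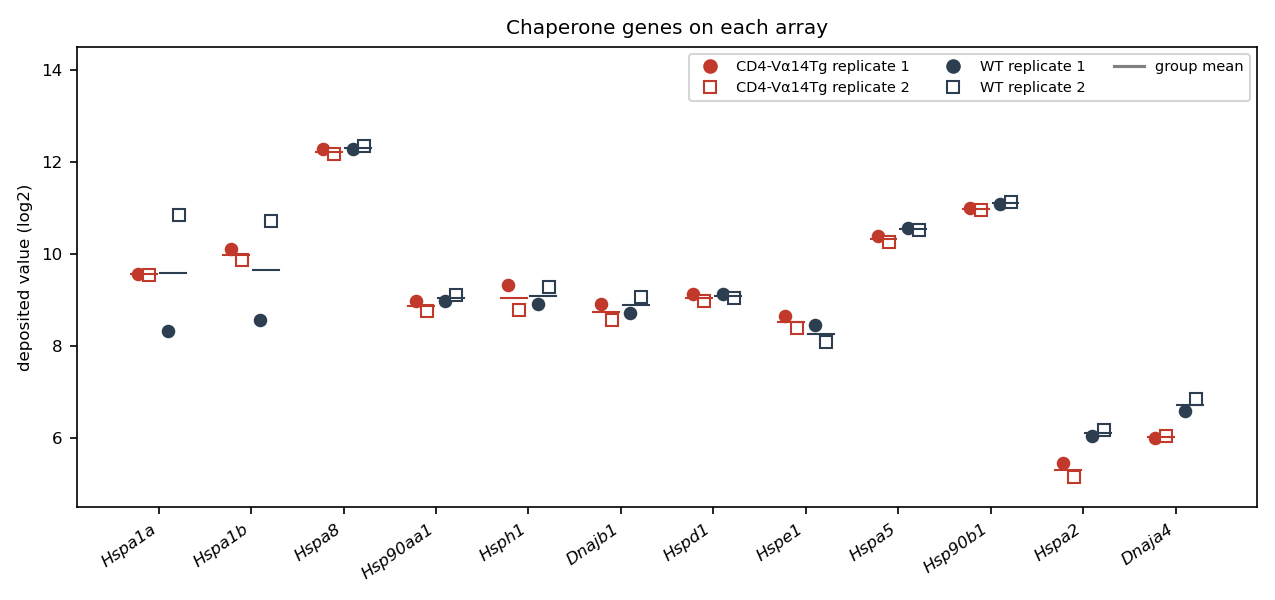
Deposited log2 value (y axis) of 12 chaperone genes on each array, with CD4-Vα14Tg in red, WT in dark blue, replicate 1 as filled circles, replicate 2 as open squares and group means as lines. The WT arrays of Hspa1a (8.32 and 10.84) and Hspa1b (8.57 and 10.72) bracket the CD4-Vα14Tg arrays, while Hspa2 and Dnaja4 are lower on both CD4-Vα14Tg arrays.

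On the brightest probe set of each gene, the constitutive members of the HSP70 cycle were close between genotypes. Hspa8, the abundant cytosolic HSC70, read 12.28 and 12.17 in CD4-Vα14Tg and 12.28 and 12.35 in WT cells, a log2 difference of -0.09 (interval -0.37 to 0.19, limma adjusted p = 0.904). A further 3 probe sets carry its symbol, and when all 23521 named probe sets were fitted on their own they had differences of -0.47, -0.58 and -0.58 (limma adjusted p = 0.260, 0.177 and 0.168). On each of these 3, both CD4-Vα14Tg arrays lay below both WT arrays, unlike on the brightest one. Hspa9, the mitochondrial HSP70 mortalin, differed by -0.03 and Hspa14, an HSP70 that binds the ribosome, by -0.08, and Hspa4, an HSP110 nucleotide exchange factor, by 0.02. Hspa4l, its close relative, differed by 0.16 (interval -0.17 to 0.48).

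The 2 tested HSP90 genes had slightly lower means in CD4-Vα14Tg than in WT cells without passing the test. In each, both transgenic arrays lay below both WT arrays, as for 23.4% of all genes. For Hsp90aa1 the nearest arrays of the genotypes read 8.974 and 8.976. Hsp90aa1, the inducible cytosolic HSP90, read 8.97 and 8.76 against 8.98 and 9.11, a log2 difference of -0.18 (interval -0.49 to 0.13, limma adjusted p = 0.736). Hsp90b1, the ER HSP90 known as GRP94, which folds Toll-like receptors and integrins, read 11.00 and 10.96 against 11.09 and 11.13, a difference of -0.14 (interval -0.41 to 0.13, limma adjusted p = 0.782). Hsp90ab1 and Dnaja1 were not analysed here.

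Of the 8 ER chaperone genes tested, limma called 0 (against 1.34% of all genes lower and 0.610% higher), with a median log2 difference of -0.08. At an unadjusted p under 0.05, 0 were lower (against 7.04% of all genes) and 0 higher (against 4.62%). Hspa5, the ER HSP70 called BiP, read 10.39 and 10.26 in CD4-Vα14Tg and 10.57 and 10.53 in WT cells, a difference of -0.22 (interval -0.50 to 0.06, limma adjusted p = 0.574). Its partners Dnajb11 and Dnajc1 had differences of -0.20 and -0.19, while the J proteins Dnajb9 and Dnajc3, which act in the unfolded protein response, had -0.015 and 0.10. Hspa5, Hsp90b1, Dnajb11 and Dnajc1 were the 4 for which both transgenic arrays lay below both WT arrays (4 of 8, against 23.4% of all genes), and Dnajc3 was the 1 for which they lay above (12.5%, against 15.7%).

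The CCT subunit genes differed little between genotypes. The 8 tested CCT subunit genes had log2 differences from -0.13 (Cct5) to 0.0085 (Cct2) with a median of -0.018, and every interval of the 8 lay between -0.42 and 0.32. Limma called 0 of them (against 1.34% of all genes lower and 0.610% higher). At an unadjusted p under 0.05, 0 were lower (against 7.04% of all genes) and 0 higher (against 4.62%). Cct2 read 10.62 and 10.53 on the CD4-Vα14Tg arrays and 10.62 and 10.51 on the WT arrays, which overlapped. Cct3, Cct4, Cct6a, Cct7 and Cct8 had differences of -0.0020, 0.0030, -0.030, -0.081 and -0.0050, and Tcp1, the founding CCT subunit, had -0.05.

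A further, dimmer probe set of Tcp1 behaved otherwise. It read 7.29 and 7.34 on the CD4-Vα14Tg arrays and 6.56 and 6.24 on the WT arrays, a log2 difference of 0.92, and it passed in the fit of all named probe sets (limma adjusted p = 0.0275). The brighter Tcp1 probe set read 10.09 and 9.88 against 10.02 and 10.06, so the probe sets of this gene disagree. RefSeq places the small nucleolar RNA gene Snora20 inside Tcp1, and which transcript the dimmer probe set reads was not tested. In mitochondria, Hspd1, which encodes HSP60, had a difference of -0.03 (interval -0.32 to 0.26), and Hspe1, which encodes HSP10, read 8.65 and 8.39 against 8.45 and 8.09, a difference of 0.25 (interval -0.13 to 0.64, limma adjusted p = 0.667).

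Among the J protein genes, 37 of 41 were tested, 0 passed limma's test, and 4 were lower (10.8%, against 7.04% of all genes) and 2 higher (5.41%, against 4.62%) at an unadjusted p under 0.05. Dnaja4, a cytosolic J protein, just missed the threshold. It read 5.99 and 6.04 in CD4-Vα14Tg and 6.59 and 6.86 in WT cells, a 1.64-fold difference of -0.71 (interval -1.03 to -0.40, limma adjusted p = 0.0515). It passed under 4 of the alternatives (limma adjusted p = 0.0344 with a stricter filter on dim genes, 0.0422 with repeated quantile normalization, 0.0498 with probe sets averaged and 0.0131 with the replicate number as a block). It did not pass with no filter (0.0693), with median centring (0.0539), with trend and robust options (0.0509) or with any 1 array left out (0.0541 to 0.224).

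The other J protein genes with an unadjusted p under 0.05 were Dnajc15, Dnajb5, Dnajb13, Dnajc6 and Dnajc28. Dnajc15, also called MCJ, a mitochondrial J protein that restrains respiratory complex I, read 6.98 and 7.10 in CD4-Vα14Tg and 7.41 and 7.48 in WT cells (difference -0.40, limma adjusted p = 0.201). Dnajb5 had a difference of -0.42 and Dnajb13, a J protein of sperm flagella, had -0.35 (limma adjusted p = 0.251 and 0.297). Dnajc6, which encodes the clathrin uncoating factor auxilin, read 5.57 and 5.30 in CD4-Vα14Tg and 5.16 and 5.02 in WT cells (difference 0.35, limma adjusted p = 0.381). Dnajc28 read 5.46 and 5.35 against 5.15 and 5.02 (difference 0.32, limma adjusted p = 0.356).

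Dnaja3, the mitochondrial J protein TID1, was also lower on both CD4-Vα14Tg arrays without passing, with a difference of -0.32 (interval -0.65 to 0.0015, limma adjusted p = 0.430). Among the remaining J protein genes, Dnaja2, a cytosolic partner of HSC70, had -0.07. Dnajb6, which keeps polyglutamine proteins from aggregating, had -0.05. The next positive differences by size were those of Dnajb2, Dnajb14, Dnajb4 and Dnajc12 at 0.19, 0.17, 0.15 and 0.13, none past the test. The median over the 24 tested Dnajc genes was -0.0032, with 11 positive and 13 negative.

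Small heat shock proteins hold unfolding proteins without ATP. Hspb1, the gene of HSP27, read 4.29 and 4.58 in CD4-Vα14Tg and 4.31 and 4.41 in WT cells, below the filter. Of the 7 genes with an Hspb symbol other than Hspbp1 and Hspbap1, 5 were tested and 0 passed by limma. At an unadjusted p under 0.05, 0 were lower (against 7.04% of all genes) and 0 higher (against 4.62%). Hspb7, a heart and muscle gene, had a difference of -0.33 (limma adjusted p = 0.549). The rule also took in Hspbp1, a nucleotide exchange factor of HSP70, and Hspbap1, an HSP27 binding protein, at -0.14 and 0.35 (limma adjusted p = 0.809 and 0.596). Besides Hspb1, the genes below the filter were Hspb3, Hspa1l, Cct6b, Dnajb3, Dnajb7, Dnajc5b and Dnajc5g, with values between 3.26 and 4.79 on all arrays.

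Genes that work with these chaperones were also close between genotypes. Of 32 tested genes of HSF2 and the co-chaperones, 0 passed limma's test. At an unadjusted p under 0.05, 2 were lower (6.25%, against 7.04% of all genes) and 0 higher (against 4.62%). The median log2 difference was -0.06, against -0.02 for all genes. Both transgenic arrays lay below both WT arrays for 10 (31.25%, against 23.4% of all genes) and above them for 2 (6.25%, against 15.7%). Bag1, a nucleotide exchange factor that links HSP70 to the proteasome, read 7.78 and 7.60 in CD4-Vα14Tg and 8.20 and 8.19 in WT cells (difference -0.50, limma adjusted p = 0.118). Unc45a, an HSP90 co-chaperone for myosin, had -0.30 (limma adjusted p = 0.361). Of 18 tested genes of ER folding and the unfolded protein response, 0 passed limma's test, and the median was -0.10. At an unadjusted p under 0.05, 2 were lower (11.1%, against 7.04% of all genes) and 1 higher (5.56%, against 4.62%). Both transgenic arrays lay below both WT arrays for 6 (33.3%, against 23.4% of all genes) and above them for 3 (16.7%, against 15.7%). Atf4, the transcription factor of the integrated stress response, had -0.40, Herpud1, an ER degradation factor, had -0.35, and Xbp1, the transcription factor spliced by IRE1, had 0.45 (limma adjusted p = 0.255, 0.361 and 0.319).

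Immediate early genes had larger differences than the chaperone genes in these data, and both lists were chosen with earlier results of these data known. Of 22 tested, 1 fell by limma (Egr1, difference -0.96, adjusted p = 0.0171), 0 rose, and the median log2 difference was -0.52. At an unadjusted p under 0.05, 14 were lower (63.6%, against 7.04% of all genes) and 0 higher. The count of calls was 11 with the replicate number as a block, 5 with trend and robust options, 4 with the 60th percentile filter, 3 with probe sets averaged, 2 with median centring and 0 to 2 with 1 array left out, where 0 was reached without WT replicate 2. Both CD4-Vα14Tg arrays lay below both WT arrays for 16 of the 22 (72.7%, against 23.4% of all genes). The median deviation of this list was -0.24 on both CD4-Vα14Tg arrays and 0.24 and 0.34 on the WT arrays, while that of the 12 tested heat-inducible chaperones was 0.072 and -0.080 on the CD4-Vα14Tg arrays and -0.039 and 0.11 on the WT arrays. The difference between the lists was not tested, and the part of handling in either list was not tested.

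**Figure D4:**
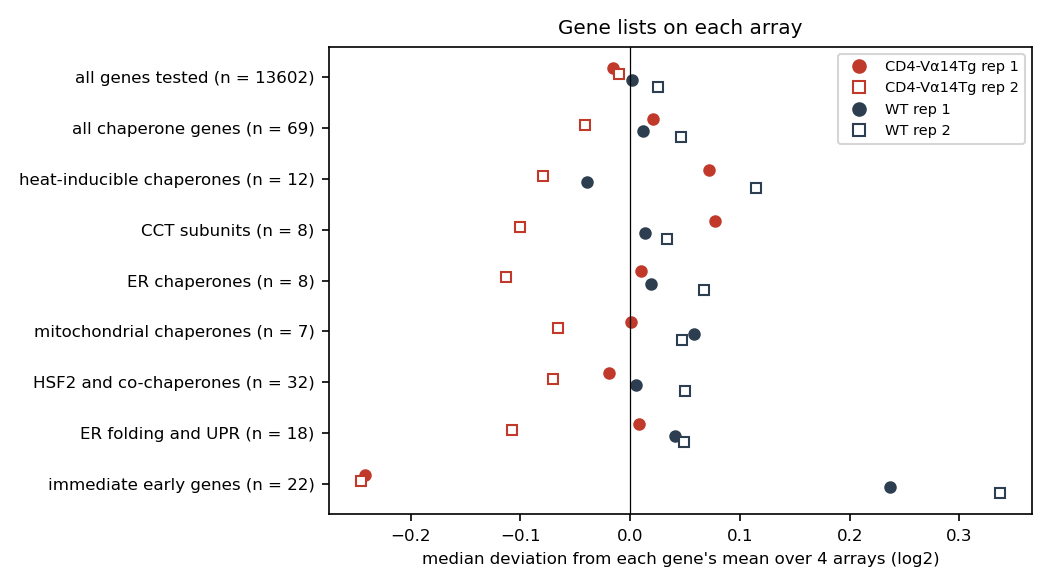
Median deviation of each gene list from its genes' means over the 4 arrays (x axis, log2 units), 1 point per array, with CD4-Vα14Tg in red, WT in dark blue, replicate 1 filled and replicate 2 open. Immediate early genes separate the genotypes, at -0.24 on both CD4-Vα14Tg arrays against 0.24 and 0.34, whereas the chaperone lists lie within 0.12 of 0 and CD4-Vα14Tg replicate 2 is lowest in each of them.

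All 16 analysed markers of iNKT and T cells lay above the filter, among them Zbtb16 (PLZF) at 11.33 and 11.10 and Cd3e at 12.02 and 12.33 in CD4-Vα14Tg and WT cells. Of these 16, 3 fell and 0 rose. Klrb1c (NK1.1) had a log2 difference of -1.45 (limma adjusted p = 0.00326), Tbx21 (T-bet) one of -1.39 (limma adjusted p = 0.00819) and Il2rb one of -0.80 (limma adjusted p = 0.0427), while Slamf6 did not pass at 0.73 (limma adjusted p = 0.0603). Their part in the chaperone values was not tested. Of the analysed markers of other cells, 2 of 7 for B cells, 2 of 12 for myeloid cells, 1 of 4 for red cells and platelets, 2 of 6 for thymocytes and 7 of 10 for stroma, epithelium and liver were above it. Their summed linear values were 149 to 188, 338 to 349, 95.3 to 111, 163 to 203 and 677 to 875 on the 4 arrays, against 23000 to 27254 for the iNKT list. The sum of the stromal and epithelial list was higher on both CD4-Vα14Tg arrays (875 and 866 against 726 and 677). It rested largely on its brightest gene, Pecam1, at log2 values of 9.13 and 9.13 against 8.69 and 8.62. The next brightest, Krt8, read 5.93 and 5.81 against 6.03 and 5.70, which overlapped. The part of this list in the chaperone values was not tested. Itgam, a myeloid marker that NK cells also carry, was the 1 marker of other cells that passed, at 5.42 and 5.44 on the CD4-Vα14Tg arrays and 4.84 and 4.69 on the WT arrays (limma adjusted p = 0.0438).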

How the data were processed

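The deposited values are log2 intensities, 1 per probe set and array, made by the authors with RMA and Affymetrix Power Tools per the submitters' processing notes; their versions, the options and the build are not recorded in these sources. RMA makes the value distributions of arrays alike, so a change in total RNA per cell cannot be seen, and differences near background are understated. Of 41345 probe sets, 23521 had 1 symbol in the platform table and 22180 genes were named; for genes with several, the 1 with the highest mean was used. Genes at or above the 40th percentile of named probe sets on at least 2 arrays were tested: 13602.

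The test was CD4-Vα14Tg minus WT in limma 3.58.1 under R 4.3.3 (lmFit, then eBayes, no trend, not robust, two-sided), with Benjamini-Hochberg adjustment over all genes tested and a threshold of 0.05. Every adjusted p and 95% interval is from this model unless another fit or setting is named beside it, and fold is 2 raised to the absolute difference. Only 4 arrays limit the precision. Python 3.11.15, pandas 2.3.3, numpy 2.4.6 and matplotlib 3.10.9 were used for tables, motif searches and plots.

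The chaperone genes and all gene lists were chosen with earlier results of these data known. The genes named were those with an unadjusted p under 0.05, the 10 largest differences each way and a list of key chaperones whatever their test; from the other lists, genes with an unadjusted p under 0.05, at most 8 each. Alternatives were the replicate number as a block, other filters, normalizations, probe set rules and variance models, and leaving out each array; the fit of each named probe set on its own was added after seeing the data.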

Additional observations from a re-analysis of the deposited data

How the results depend on the processing

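Of the 43 chaperone genes followed, 22 kept direction and call under every alternative run. They include Hspa13, whose difference of 0 has no direction to lose and ran from -0.138 to 0.138 with 1 array left out. Sign changes were in genes with a difference of at most 0.345 in size. Chaperone genes called lower numbered 0 with no filter, 2 with the 60th percentile filter, 2 with quantile normalization, 2 with probe sets averaged and 2 with the replicate block, and 0 to 1 with 1 array left out, where 0 to 2 were called higher. At an unadjusted p under 0.05, those higher numbered 0 with the 60th percentile filter and 3 with no filter, and 1 to 3 with 1 array left out; those lower numbered 2 to 7. Calls over all genes, both directions together, were 222 with no filter, 314 with the 60th percentile filter and 270 with quantile normalization. With probe sets averaged they were also 270. Shares of all genes at an unadjusted p under 0.05 are not given for the alternatives. The chaperone counts at that threshold were therefore not compared with the whole array under them. The median of the chaperone genes ran from -0.061 to 0.02 with 1 array left out. The shared replicate numbers are not stated to pair the arrays; the deviations of same-numbered arrays correlated at 0.262 across genes, and the replicate block moved the calls over all genes from 265 to 674, of the co-chaperone list to 1 and of the immediate early list to 11. Calls over all genes were 166 to 221 with 1 array left out. Immediate early calls were 2 with median centring, 3 with probe sets averaged, 4 with the 60th percentile filter, 5 with trend and robust options, and 0 to 2 with 1 array left out.

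With quantile normalization the differences of Cct3, Cct6a, Cct8, Dnajb9, Hspa1a, Hspa9 and Hspd1 turned positive, at 0.051, 0.017, 0.019, 0.031, 0.0030, 0.021 and 0.023. The mean of the Tcp1 probe sets was 0.43 and the dimmer one 0.92; further probe sets gave 0.024 and 0.075 for Dnaja3 and -0.23 for Dnajb14. With 1 array left out, differences changed sign within -0.046 to 0.063 for Cct2, -0.082 to 0.078 for Cct3, -0.088 to 0.094 for Cct4, -0.19 to 0.13 for Cct6a, -0.11 to 0.10 for Cct8, -0.15 to 0.050 for Tcp1, -0.23 to 0.10 for Dnaja2, -0.33 to 0.012 for Dnajb1, -0.15 to 0.060 for Dnajb6, -0.21 to 0.18 for Dnajb9, -0.26 to 0.10 for Hspa14, -0.058 to 0.093 for Hspa4, -0.10 to 0.046 for Hspa9, -0.11 to 0.044 for Hspd1, -0.32 to 0.22 for Hsph1, -1.28 to 1.23 for Hspa1a and -0.73 to 1.42 for Hspa1b. The causes were not tested.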

Other observations

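The genes with the largest gaps between the WT arrays were examined after the Hspa1a and Hspa1b values had been seen. The first rank was Rny1, a Y RNA gene, at 8.70 on WT replicate 1 and 6.17 on WT replicate 2, a gap of -2.53 in log2 units opposite in sign to the gaps of Hspa1a and Hspa1b. After that pair came Snora34 at -1.94 and Snord1b at -1.66, both genes of small nucleolar RNAs. The next gene in the same direction as Hspa1a was Mir181b-1, a microRNA gene, at 1.53, and its CD4-Vα14Tg arrays read 5.63 and 6.82. Klra6, an Ly49 family receptor, had a gap of 1.40, from 6.05 to 7.46, and was lower on the CD4-Vα14Tg arrays at 4.85 and 5.13.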
